A study of Mus musculus with 47 samples.

Results

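H3K27ac, H3K4me1 and H3K27me3, mapped in E1/E2-KO female liver, were crossed with each other to find where activating marks lie inside regions of the repressive mark H3K27me3. The members were all peaks and regions on the 19 autosomes in the E1/E2-KO female lists: 50426 H3K27ac peaks, 50922 H3K4me1 peaks and 14554 H3K27me3 regions. These are 115902 of the 498557 entries in the 12 lists of the series. The mice were 7-week-old females of the genotype Ezh1-/-, EZH2f/f, AC+, in which Ezh1 was lost in all cells and Ezh2 was deleted by an albumin-driven Cre, hence in hepatocytes only. Endothelial, stellate and immune cells of these livers therefore kept Ezh2. ChIP-seq was carried out on 4 livers for H3K27ac, 4 for H3K27me3 and 3 for H3K4me1, as the sample records count them. Livers of a mark were pooled before peaks were called, so each list stands alone, no value has a replicate error, and no test across animals was possible. Values are given with 95% intervals that cover counting error only and take neighbouring peaks as separate draws. Read depth is not given in the sources used here. No other group was compared.

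H3K27me3 is placed on lysine 27 of histone H3 by the Polycomb complex PRC2, whose catalytic subunit is Ezh1 or Ezh2, and marks genes held silent. H3K27ac sits on the same lysine at active promoters and enhancers, so a single histone tail cannot carry both. H3K4me1 marks enhancers and the shoulders of active promoters, and can lie on a nucleosome that also carries H3K27me3, as at enhancers termed poised. In whole liver, marks that share a stretch of DNA may lie on neighbouring nucleosomes, on different alleles or in different cells, and these cases cannot be told apart from the lists.

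H3K27me3 regions covered 633 Mb, or 26.4% of the sequenced bases of the autosomes, with a median width of 30800 bp (interval 30400 to 31200) and a widest region of 674000 bp. The activating peaks were far narrower. H3K27ac peaks covered 26.0 Mb with a median of 404 bp, and H3K4me1 peaks covered 23.8 Mb with a median of 396 bp. H3K27ac peaks lay at most promoters of both lists of hepatocyte genes. Of 15 hepatocyte transcription factor genes, 15 had an H3K27ac peak within 1 kb of a transcription start site (TSS), as had 19 of 20 hepatocyte secreted and metabolic genes and 0 of 12 lymphocyte genes, beside 54.7% of all autosomal protein-coding genes. High shares were not particular to liver genes, with 17 of 18 housekeeping, 19 of 19 Polycomb subunit and 13 of 16 endothelial genes. Sex-biased liver genes stood lower, at 10 of 23 female-biased and 13 of 22 male-biased genes.

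The sequences of 7 windows, chosen by gene, are printed as examples of DNA that carried the marks. Each is 300 bp, the plus strand of NCBIM37 (the mm9 assembly), centred on the named peak or on the bases that H3K27ac and H3K4me1 share, with CpG dinucleotides in capitals. Ovol2, a zinc finger factor gene of epithelia, and Hoxd13, a gene of limb and genital patterning, carried H3K4me1 without H3K27ac in H3K27me3 regions, and their windows at chr2:144157218-144157517 and chr2:74506866-74507165 hold 19 and 14 CpGs. Cdkn2a, which encodes the cell cycle inhibitors p16 and Arf, and Lhx2, a LIM homeobox gene that marks stellate cells, carried all 3 marks, and their windows at chr4:88940439-88940738 and chr2:38195141-38195440 hold 41 and 26 CpGs. Nr0b2, which encodes the bile acid-induced repressor SHP, carried all 3 marks at a window with fewer CpGs, at chr4:133108307-133108606, with 5 CpGs. The window of Nr5a2 at chr1:138844386-138844685, from the widest H3K27ac peak wholly inside an H3K27me3 region, holds 6. Alb, which encodes serum albumin, is shown as a promoter outside H3K27me3, with 3 CpGs at chr5:90889197-90889496. The mean over autosomal windows of this size was 2.54.
Ovol2: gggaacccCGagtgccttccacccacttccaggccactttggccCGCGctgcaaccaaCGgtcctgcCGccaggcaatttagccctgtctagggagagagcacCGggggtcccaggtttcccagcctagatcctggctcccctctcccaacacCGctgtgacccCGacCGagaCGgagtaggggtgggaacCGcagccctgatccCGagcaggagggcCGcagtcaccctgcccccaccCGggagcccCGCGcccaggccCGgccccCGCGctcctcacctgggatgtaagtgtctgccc
Hoxd13: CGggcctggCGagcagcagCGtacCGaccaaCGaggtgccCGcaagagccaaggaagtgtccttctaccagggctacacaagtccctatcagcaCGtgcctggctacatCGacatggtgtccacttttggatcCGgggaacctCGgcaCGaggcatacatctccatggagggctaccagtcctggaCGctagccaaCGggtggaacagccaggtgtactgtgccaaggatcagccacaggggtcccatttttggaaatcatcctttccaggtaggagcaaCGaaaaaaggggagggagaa
Cdkn2a: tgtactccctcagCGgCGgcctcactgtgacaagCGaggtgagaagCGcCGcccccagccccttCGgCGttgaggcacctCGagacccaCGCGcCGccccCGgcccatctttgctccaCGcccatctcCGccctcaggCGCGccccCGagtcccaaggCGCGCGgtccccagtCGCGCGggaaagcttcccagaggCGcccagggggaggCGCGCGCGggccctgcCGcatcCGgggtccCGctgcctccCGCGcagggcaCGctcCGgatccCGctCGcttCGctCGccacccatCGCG
Lhx2: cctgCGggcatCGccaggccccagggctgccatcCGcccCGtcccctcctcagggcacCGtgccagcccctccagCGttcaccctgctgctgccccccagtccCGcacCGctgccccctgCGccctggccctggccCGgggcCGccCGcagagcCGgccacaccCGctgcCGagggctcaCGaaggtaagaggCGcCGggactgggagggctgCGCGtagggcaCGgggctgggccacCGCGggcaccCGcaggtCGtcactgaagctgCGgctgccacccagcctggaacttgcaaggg
Nr0b2: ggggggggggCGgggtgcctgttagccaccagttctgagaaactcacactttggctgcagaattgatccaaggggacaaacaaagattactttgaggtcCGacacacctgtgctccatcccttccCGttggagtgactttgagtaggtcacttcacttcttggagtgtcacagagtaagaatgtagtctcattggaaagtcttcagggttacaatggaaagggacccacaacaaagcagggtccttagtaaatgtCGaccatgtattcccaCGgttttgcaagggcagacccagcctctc
Nr5a2: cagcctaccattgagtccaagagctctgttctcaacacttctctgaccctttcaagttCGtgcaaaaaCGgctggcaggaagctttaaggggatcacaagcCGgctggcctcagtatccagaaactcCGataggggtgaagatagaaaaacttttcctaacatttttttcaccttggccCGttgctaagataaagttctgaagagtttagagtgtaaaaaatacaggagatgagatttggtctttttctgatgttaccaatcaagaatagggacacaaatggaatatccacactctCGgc
Alb: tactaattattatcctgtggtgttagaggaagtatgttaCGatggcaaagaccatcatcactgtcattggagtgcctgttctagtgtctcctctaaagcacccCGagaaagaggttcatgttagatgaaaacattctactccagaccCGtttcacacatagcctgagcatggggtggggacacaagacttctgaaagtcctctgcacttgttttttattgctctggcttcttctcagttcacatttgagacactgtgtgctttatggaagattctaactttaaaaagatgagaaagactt
The first 4 windows hold 14 to 41 CpGs and the last 3 hold 3 to 6. As the windows were chosen, this split does not carry over to all peaks. Over all 4873 H3K27ac peaks with all 3 marks, the median was 6 CpGs.

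The first question was how often each combination of marks occurred, by an overlap of at least 1 bp. H3K27ac peaks were scarcer in H3K27me3 regions than their size gives, and H3K4me1 peaks, taken as a whole list, were not. Of the H3K27ac peaks, 10619 touched an H3K27me3 region, which is 21.1% (interval 20.7% to 21.4%). A peak of the same width set down at every free position of its chromosome in turn would touch a region in 27.4% of positions, so the observed share was 0.77 times the uniform share. Of the H3K4me1 peaks, 13894 touched a region, or 27.3% (26.9% to 27.7%), beside a uniform share of 27.2% and a ratio of 1.00. Most of these peaks lay wholly in the regions, namely 10251 of the 10619 H3K27ac peaks (96.5%) and 13524 of the 13894 H3K4me1 peaks (97.3%). Across the 19 autosomes the ratio ran from 0.635 on chromosome 11 to 0.920 on chromosome 14 for H3K27ac, so it was below 1 on each of them. For H3K4me1 it ran from 0.838 on chromosome 18 to 1.16 on chromosome 3. The H3K4me1 value also varied with distance from the nearest TSS. The share of H3K4me1 centres inside was 1.25 times the share of bases within 1 kb, and 0.794 to 0.976 times beyond.

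The combination of all 3 marks was far more frequent than under uniform placement, which does not keep the overlap of the activating marks with each other. That overlap was itself far more frequent. For H3K27ac peaks, all 3 marks stood at 16.6 times the uniform share, and H3K4me1 without H3K27me3 at 20.9 times. All 3 marks met at 4873 H3K27ac peaks, 9.66% of that list, beside a uniform share of 0.584%. They met at 4877 H3K4me1 peaks, 9.58% of that list, beside 0.421%. H3K27ac met H3K4me1 without H3K27me3 at 15733 peaks (31.2%), H3K27me3 alone at 5746 (11.4%) and neither mark at 24074 (47.7%). For H3K4me1 the same classes held 15658 peaks with H3K27ac (30.7%), 9017 with H3K27me3 alone (17.7%) and 21370 with neither (42.0%). Of 29820 H3K27ac peaks without H3K4me1, 19.3% (interval 18.8% to 19.7%) touched H3K27me3, beside 27.3% of positions. Of 30387 H3K4me1 peaks without H3K27ac, 29.7% (29.2% to 30.2%) did so, beside 27.4%.

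**Figure D1:**
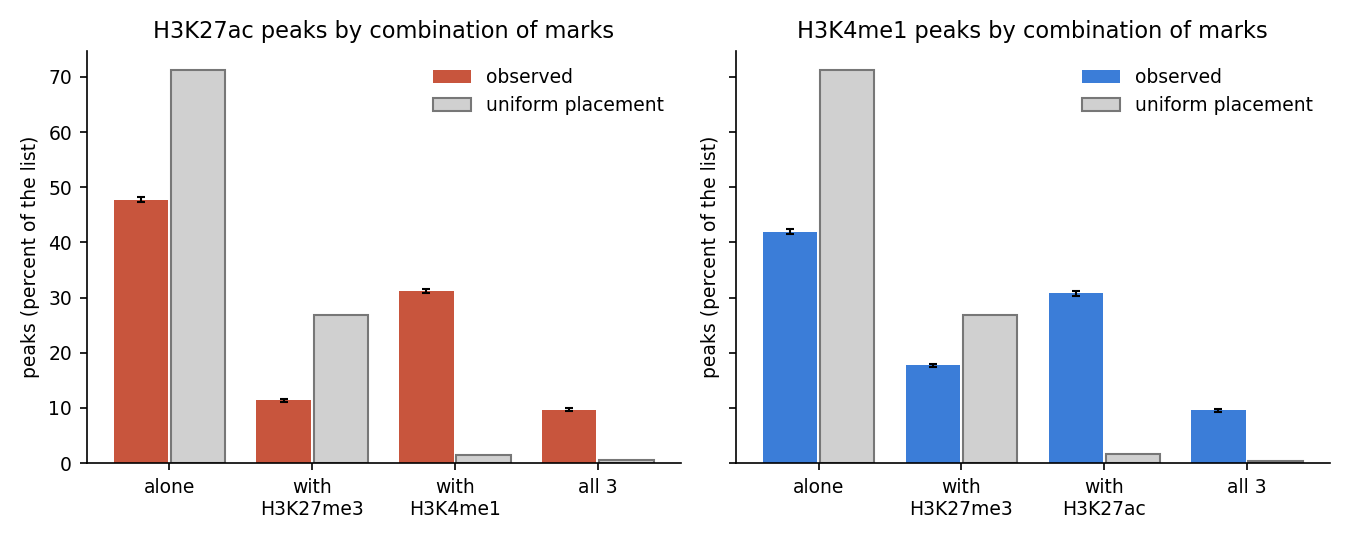
Share of the H3K27ac list (left) and the H3K4me1 list (right) in each combination of marks, in percent of peaks. Coloured bars are observed shares with 95% Wilson intervals and grey bars the share of free positions at which a peak of equal width would fall in that combination. Peaks with all 3 marks made up 9.66% and 9.58% of the lists, beside 0.584% and 0.421% under uniform placement. Uniform placement does not keep the overlap of H3K27ac with H3K4me1. Without H3K27me3, that overlap was at 31.2% of H3K27ac peaks, beside 1.49%.

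Counted in bases, the 3 marks shared 1.43 Mb, in 5063 stretches with a median of 256 bp (interval 252 to 261) and a longest stretch of 1349 bp. If the 3 lists lay independently on each chromosome, 0.0737 Mb would be shared. With the bases shared by H3K27ac and H3K4me1 held as observed and the H3K27me3 share of each chromosome applied to them, 1.65 Mb would be shared, and the observed length was 0.870 times that. H3K27ac with H3K27me3 and no H3K4me1 covered 3.66 Mb, which was 0.677 times the length expected in the same way. H3K4me1 with H3K27me3 and no H3K27ac covered 5.18 Mb, or 1.09 times. The bases of H3K27me3 regions under neither activating mark were 622.7 Mb, so activating peaks took up a small part of the regions.

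H3K4me1 peaks carried H3K27ac less often inside than outside H3K27me3 regions. Inside, 35.1% (interval 34.3% to 35.9%) of 13894 H3K4me1 peaks overlapped an H3K27ac peak, against 42.3% (41.8% to 42.8%) of 37028 outside. Where 50% of the peak had to overlap, the shares were 21.5% and 26.6%. The share was lower inside on 19 of 19 autosomes. By chromosome it ran from 31.0% to 38.3% inside and from 39.0% to 45.1% outside, so the 2 ranges did not overlap. The reciprocal share went the other way. H3K4me1 was met by 45.9% (interval 44.9% to 46.8%) of the 10619 H3K27ac peaks inside, beside 40.9% of all 50426.

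Activating peaks were gathered in a part of the regions. Of 14554 H3K27me3 regions, 7491 (51.5%, interval 50.7% to 52.3%) held no activating peak, where placement of every peak on its own would leave 27.3% empty. H3K4me1 alone was present in 2255 regions (15.5%), H3K27ac alone in 665 (4.57%) and both in 4143 (28.5%), and in 3134 regions (21.5%) the 2 marks shared bases. The 1515 regions with the most peaks, 10.4% of all, held 50% of the activating peaks. Regions that held a TSS of a protein-coding gene held activating peaks more often than the rest. Of 5435 such regions, 80.4% (interval 79.3% to 81.4%) held an activating peak and 39.8% held shared bases, against 29.6% (28.6% to 30.5%) and 10.7% of 9119 regions without a TSS. Their median widths were 38400 bp and 28000 bp. The share with an activating peak also went with width from 10 kb up, from 39.7% of regions of 10 to 25 kb to 90.9% of those of 200 kb or more, while the 283 regions under 10 kb stood at 42.4% (interval 36.8% to 48.2%), and the part of width in the difference was not tested.

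Wider regions held fewer activating peaks per Mb, above all fewer of H3K27ac. The density of H3K27ac peak centres was 24.1 per Mb in regions of 10 to 25 kb, 18.04 in those of 25 to 50 kb, 16.0 in those of 50 to 100 kb, 10.9 in those of 100 to 200 kb and 10.2 in those of 200 kb or more. For H3K4me1 the densities were 26.98, 21.7, 22.1, 18.5 and 16.3 per Mb. TSSs also thinned out over these classes, from 29.0 to 15.5 per Mb, and their part in the trend was not tested. Within regions H3K27ac fell away from the edge, from 23.5 centres per Mb in the outermost kb to 16.4 at 10 to 15 kb and 11.5 at 30 to 50 kb from the nearest edge. H3K4me1 moved from 24.8 to 22.5 and 18.3 per Mb over the same distances. The densities of the marks were thus close to each other at the edge and apart in the depth of wide regions. Peak centres more than 10 kb from an edge made up 46.0% of the H3K27ac and 52.3% of the H3K4me1 centres inside, beside 56.5% of the bases.

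**Figure D2:**
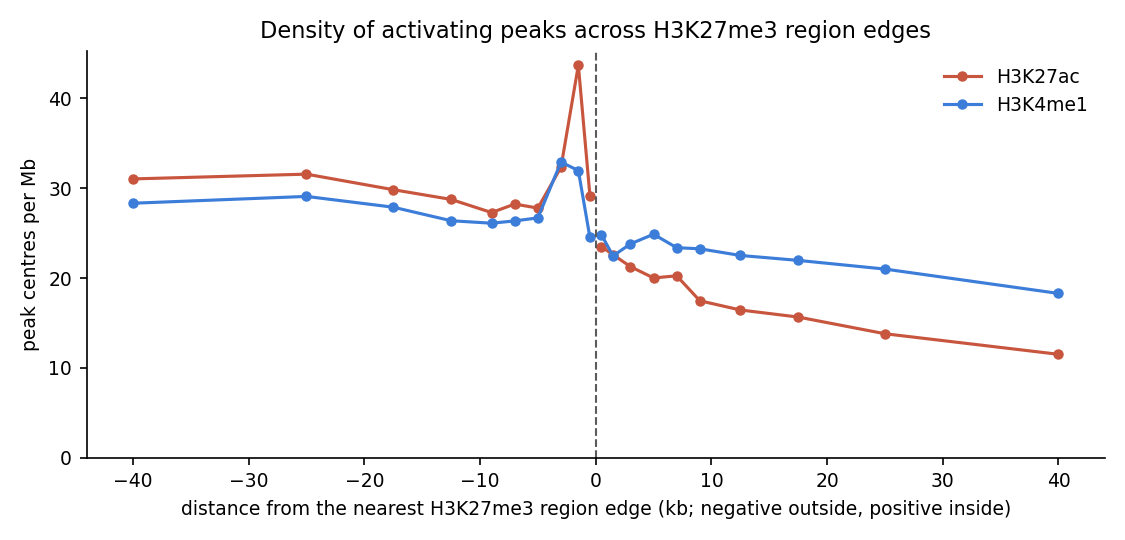
Peak centres per Mb of H3K27ac (red) and H3K4me1 (blue) against the distance in kb from the nearest H3K27me3 region edge, negative outside and positive inside. Each point is a distance class drawn at its middle. Inside, H3K27ac ran from 23.5 to 11.5 per Mb and H3K4me1 from 24.8 to 18.3 per Mb.

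Around gene starts H3K4me1 took different places in and out of H3K27me3, while H3K27ac was highest at the same place. H3K4me1 lay over the start or just downstream of it for genes in H3K27me3 regions. Outside the regions it lay on both sides of the start of genes with H3K27ac. Among 6991 protein-coding genes whose annotated start lay in a region, 15.1% had an H3K4me1 peak over the start itself, and the share was highest, at 18.9%, 250 bp downstream. Among 14418 genes with the start outside, 1.82% had H3K4me1 over the start, with shoulders of 7.71% at 750 bp upstream and 16.6% at 1000 bp downstream. H3K27ac was highest 250 bp downstream in both, in 26.3% of genes inside and 51.8% of genes outside. The dip of H3K4me1 over the start outside the regions was that of the 8892 genes with H3K27ac, at 11.9%, 2.05% and 25.7% at 750 bp upstream, the start and 1000 bp downstream. The 5526 genes outside and without H3K27ac had 1.05%, 1.45% and 1.97% there. Genes were split by H3K27ac within 1 kb of any TSS of their coding transcripts, from which the plotted gene start can differ. Among 4174 genes inside and without H3K27ac by this rule, 16.1% had H3K4me1 over the start, against the 1.45% outside the regions. The 2817 genes inside and with H3K27ac had H3K4me1 over the start in 13.8%. Their H3K4me1 share was highest 500 bp downstream, at 24.5%.

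**Figure D3:**
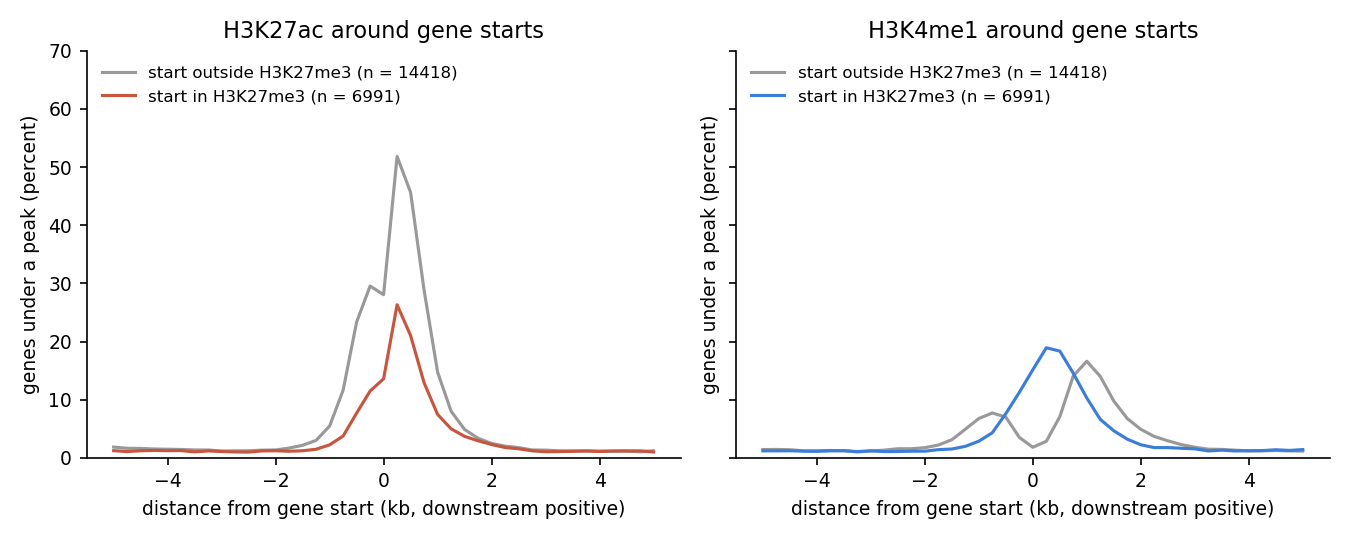
Percent of genes with an H3K27ac peak (left) or an H3K4me1 peak (right) at each distance in kb from the annotated gene start, read every 250 bp, downstream positive. Coloured lines are 6991 genes with the start in an H3K27me3 region and grey lines 14418 genes with the start outside. H3K4me1 at the start stood at 15.1% inside and 1.82% outside.

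By distance from the nearest TSS, H3K4me1 and H3K27ac peaks parted most within 1 kb. Of bases within 1 kb of a TSS, 32.9% lay in H3K27me3 regions. There 41.3% (interval 40.3% to 42.4%) of 8764 H3K4me1 centres lay in the regions, or 1.25 times the share of bases, and 22.3% (21.6% to 23.0%) of 14676 H3K27ac centres, or 0.677 times. From 1 to 10 kb the ratios of the marks were close, at 0.794 for H3K4me1 and 0.778 for H3K27ac. From 10 to 50 kb they were 0.807 and 0.629, and beyond 50 kb 0.976 and 0.762. Promoter peaks, those that touch the 1 kb on either side of a TSS, made up 28.4% of H3K4me1 peaks inside the regions and 17.3% outside. For H3K27ac they made up 32.9% inside and 29.4% outside. Peaks with their centre in an intron were fewer inside, at 24.3% against 45.9% for H3K4me1 and 23.8% against 37.5% for H3K27ac, although introns took up 35.8% of the bases inside and 35.2% outside.

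For H3K27ac, widths differed between inside and outside at promoters, and hardly elsewhere. The median H3K27ac peak was 390 bp (interval 384 to 395) inside and 408 bp (404 to 412) outside. With peaks within 1 kb merged the medians were 533 bp and 680 bp. Among promoter peaks the medians were 539 bp (527 to 551) and 689 bp (680 to 699), and among distal peaks 343 bp (338 to 349) and 345 bp (342 to 348), whose intervals overlap. H3K4me1 peaks were slightly wider inside, with medians of 409 bp (404 to 414) and 392 bp (389 to 395). Inside the regions the H3K4me1 median was 471 bp with H3K27ac and 378 bp without it, and outside it was 457 bp and 355 bp. For H3K27ac inside the medians were 426 bp with H3K4me1 and 354 bp without it, but at promoters they were 532 bp (516 to 549) and 546 bp (527 to 564), whose intervals overlap. A wide peak meets a 1 bp overlap more readily than a narrow peak, so some difference follows from the rule.

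Peaks inside H3K27me3 regions lay on CpG-rich DNA more often than those outside, most clearly for H3K4me1. A 300 bp window around the peak centre was called CpG-rich where at least 50% of its bases were G or C and its CpG count reached 0.6 times that expected from its C and G content. Of H3K4me1 peaks inside, 18.8% (interval 18.2% to 19.4%) were CpG-rich, against 1.19% (1.08% to 1.30%) outside. At promoters the shares were 44.2% and 4.05%, and for promoter H3K4me1 peaks without H3K27ac they were 49.0% and 3.12%, with median counts of 16 and 4 CpGs. Ovol2 and Hoxd13, whose windows are printed here, belong to the first of these classes. Distal H3K4me1 peaks showed the same order, at 8.75% inside and 0.588% outside. For H3K27ac the promoter shares were close, at 58.2% (56.6% to 59.9%) inside and 53.6% (52.7% to 54.5%) outside, while distal peaks stood at 8.31% and 2.04%. H3K27ac promoter peaks were thus CpG-rich in both settings, and H3K4me1 promoter peaks in the H3K27me3 regions above all.

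Counts over genes show how often the combinations occurred at promoters. They leave out distal peaks, which made up 3426 of the 4873 H3K27ac peaks and 3388 of the 4877 H3K4me1 peaks with all 3 marks. Of 21410 autosomal protein-coding genes, 54.7% had H3K27ac, 41.5% had H3K4me1 and 35.9% had H3K27me3 within 1 kb of a TSS. H3K27me3 with either activating mark at the same TSS was found at 4632 genes (21.6%), and all 3 marks at 1966 genes (9.18%). The last share was 14.1% with windows of 2.5 kb and 4.74% with the widest 50% of each activating list. Each gene was then given the state of 1 TSS, that with the most marks, so that another TSS of the gene can differ. By that TSS a further 1483 genes had H3K4me1 and H3K27me3 without H3K27ac, 1183 had H3K27ac and H3K27me3 without H3K4me1, 2977 had H3K27me3 alone and 396 had H3K4me1 alone. Of the 1966 genes, 1362 (69.3%) had bases under all 3 marks and the others had the marks side by side, with a median of 168 shared bp. Of 3775 genes covered from end to end by H3K27me3, 26.3% (interval 24.9% to 27.7%) had H3K27ac, 36.6% (35.1% to 38.2%) had H3K4me1 and 53.5% had neither, while of 12627 genes not touched by it, 60.03% had H3K27ac and 37.5% H3K4me1.

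Most hepatocyte transcription factor genes had H3K27me3 and H3K27ac within 1 kb of a TSS. Of 15, 15 had H3K27ac, 11 had H3K27me3 and 4 had all 3 marks at a TSS: Hnf4a, Foxa2, Nr5a2 and Nr0b2. H3K27me3 thus stood at 73.3% (interval 48.0% to 89.1%), beside 35.9% of all genes. All 3 marks stood at 26.7% (10.9% to 52.0%), beside 9.18% of all genes. At the TSSs of Hnf4a, Foxa2 and Nr5a2 the 3 marks lay side by side, with 0 bp under all 3. H3K27me3 covered at least 50% of 8 of the genes, and at Cebpb, counted among the 11, the region ended before the gene and covered none of it. Foxa2, a pioneer factor of liver development, lay in a region of 100000 bp that held 9 H3K27ac and 2 H3K4me1 peaks and no base under both. Hnf4a, the nuclear receptor central to hepatocyte identity, had an H3K27ac peak of 1669 bp and an H3K4me1 peak of 362 bp at its TSSs in a region of 51200 bp. Nr0b2 was covered end to end by a region of 15200 bp with 4 H3K27ac and 3 H3K4me1 peaks, and 268 bp at its TSS lay under all 3 marks. Cebpa, Nr1h4, Rxra and Nr1i3 had H3K27ac and no H3K27me3 at a TSS.

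Hepatocyte secreted and metabolic genes had H3K27ac at 19 of 20 promoters, H3K27me3 at 7 and all 3 marks at 0. The H3K27me3 share, 35% (interval 18.1% to 56.7%), was close to the 35.9% of all genes. For all 3 marks the interval, 0% to 16.1%, holds the 9.18% of all genes. Cyp2e1, a cytochrome P450 of pericentral hepatocytes, and G6pc, the glucose-6-phosphatase of gluconeogenesis, were covered end to end and had H3K27ac peaks of 1253 bp and 658 bp at the TSS. Tat, tyrosine aminotransferase, was the gene without H3K27ac at its TSS, which lay in a region of 25200 bp that ended within the gene. Alb, Apob and Pck1 carried both activating marks without H3K27me3.

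Genes of the other liver cell types differed from type to type in H3K27ac, which 54.7% of all genes had. H3K27me3 was at 35.9% of all genes, and with an activating mark at 1 TSS at 21.6%. The interval for H3K27me3 holds the 35.9% for endothelial genes (23.1% to 66.8%) and for macrophage genes (29.1% to 76.8%). For all 3 marks the interval of each list holds the 9.18% of all genes, as at stellate cell genes (6.59% to 43.0%). Of 16 endothelial genes, 13 had H3K27ac, 7 had H3K27me3 together with an activating mark at 1 TSS and 0 had all 3 marks. Kdr, the main VEGF receptor, had an H3K27ac peak of 631 bp in a region of 98400 bp. Of 16 stellate cell and fibroblast genes, 5 had H3K27ac and 12 had H3K27me3, and 3 had all 3 marks, namely Lhx2, Lrat (retinol esterification) and Reln (the secreted protein reelin). Lhx2 had 562 bp under all 3 marks, from an H3K27ac peak of 645 bp and an H3K4me1 peak of 900 bp in a region of 154800 bp. Of 12 cholangiocyte genes, 11 had H3K27me3 and 5 had H3K27ac, and Muc1, which encodes a mucin, had all 3 marks. Krt19 and Epcam, markers of bile duct cells, had H3K4me1 in H3K27me3 regions without H3K27ac. Kupffer cell and macrophage genes had H3K27ac at 1 of 13 and H3K4me1 at 0 of 13 promoters, and H3K27me3 at 7. The 1 gene was Nr1h3, which encodes the LXRα receptor and is also used by hepatocytes. Lymphocyte genes had H3K27me3 at 8 of 12 promoters and H3K4me1 at 1, Lck. The part of the non-hepatocyte cells in the combined regions was not tested.

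**Figure D4:**
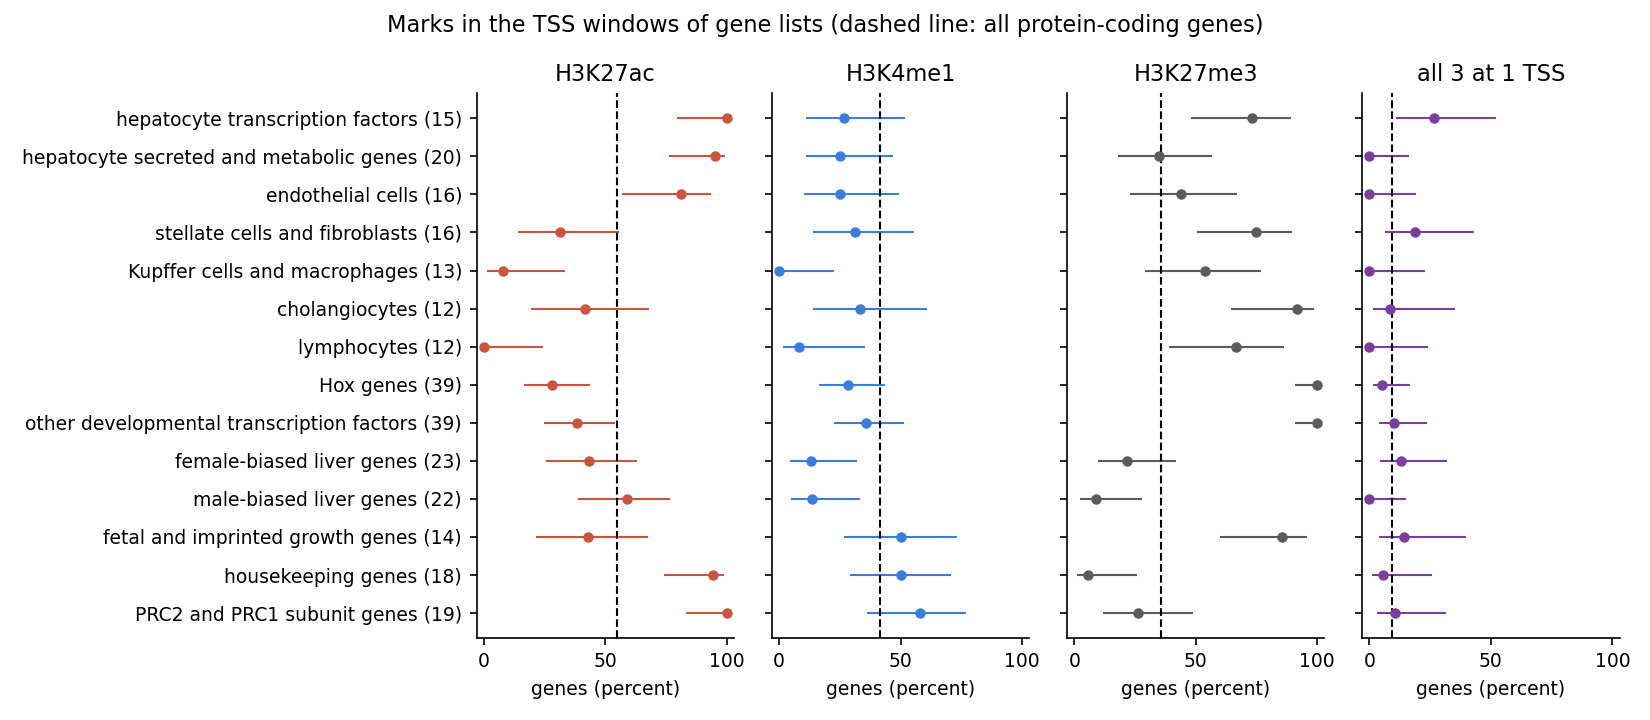
Percent of the genes of 14 lists with H3K27ac, H3K4me1, H3K27me3 or all 3 marks within 1 kb of a TSS, with 95% Wilson intervals and the number of genes in brackets. Dashed lines are all 21410 protein-coding genes, at 54.7%, 41.5%, 35.9% and 9.18%. H3K27ac was at 15 of 15 hepatocyte transcription factor genes, and H3K27me3 at 39 of 39 Hox genes.

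Hox genes, the homeobox genes of body patterning and the best known Polycomb targets, all lay in H3K27me3 in this liver. Of 39, 39 had H3K27me3 at a TSS and were covered by at least 50%, 11 had H3K27ac, 11 had H3K4me1 and 2 had all 3 marks, Hoxa3 with 216 bp and Hoxd9 with 141 bp shared. Of all genes, 35.9% had H3K27me3 and 54.7% had H3K27ac. The intervals for H3K4me1, 16.5% to 43.8%, and all 3 marks, 1.42% to 16.9%, hold the 41.5% and 9.18% of all genes. Each of the 4 clusters lay in a single region. The Hoxa cluster (chr6:52105366-52210874), in a region of 334.4 kb, held 11 H3K27ac and 5 H3K4me1 peaks and had H3K27ac at the TSS of 7 of 11 genes. The Hoxb cluster (chr11:96055630-96229570) held 10 H3K27ac and 2 H3K4me1 peaks, and none of the H3K27ac peaks was within 1 kb of a TSS of its 10 genes. The Hoxc cluster (chr15:102751534-102867274), in the widest of the 4 regions with 432.8 kb, held 5 and 4 peaks. The Hoxd cluster (chr2:74506367-74603200) held 5 and 6.

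Other developmental transcription factor genes resembled the Hox genes. Of 39, 39 had H3K27me3, 15 had H3K27ac, 14 had H3K4me1 and 4 had all 3 marks. The 4 were Gata3, a factor of T cells and ectoderm, with 355 shared bp, Tbx15, a T-box gene of skeleton and fat, with 413, and Sox2 and Tbx3 with 0. Of all genes, 35.9% had H3K27me3 and 54.7% had H3K27ac. The intervals for H3K4me1, 22.7% to 51.6%, and all 3 marks, 4.06% to 23.6%, hold the 41.5% and 9.18% of all genes. Sox2, the pluripotency and neural factor, had an H3K27ac peak of 206 bp and an H3K4me1 peak of 514 bp in a region of 67600 bp. Pax2, Nkx2-1, Myod1 and Neurog1 had H3K27me3 and neither activating mark at a TSS.

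Sex-biased liver genes had H3K27me3 at few promoters. Of 23 female-biased genes, 5 had H3K27me3 (21.7%, interval 9.66% to 41.9%, which holds the 35.9% of all genes), 10 had H3K27ac and 3 had all 3 marks, Cyp17a1 (steroid 17α-hydroxylase), Cux2 (a transcriptional repressor of male-biased genes) and Acot3 (a peroxisomal acyl-CoA thioesterase). The intervals for H3K27ac, 25.6% to 63.2%, and all 3 marks, 4.54% to 32.1%, hold the 54.7% and 9.18% of all genes. Acot3 had 274 bp under all 3 marks in a region of 30800 bp. Cyp17a1, covered end to end by a region of 19600 bp, had an H3K27ac peak of 1528 bp, and its H3K4me1 peak of 240 bp lay in the TSS window but outside the region, which held no H3K4me1 peak. Of 22 male-biased genes, 2 had H3K27me3 (9.09%, interval 2.53% to 27.8%), 13 had H3K27ac and 0 had all 3 marks. Their intervals for H3K27ac, 38.7% to 76.7%, and all 3 marks, 0% to 14.9%, hold the shares of all genes too. Elovl3, a fatty acid elongase, had H3K27me3 without an activating mark at its TSS, and Susd4 had H3K27me3 with H3K27ac. Some of these genes carried no listed mark, that is no H3K27me3 in the gene or at a TSS and no activating peak within 10 kb. They were 8 of the 23 female-biased genes (34.8%, interval 18.8% to 55.1%), among them Sult2a1 and Cyp3a41a, and 4 of the 22 male-biased genes (18.2%, 7.31% to 38.5%), beside 16.7% of all genes. Calls at gene families with near-identical copies, such as the Sult2a and Cyp3a genes, are uncertain, because reads there can match more than 1 copy.

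Among 14 fetal and imprinted growth genes, 12 had H3K27me3, beside 35.9% of all genes. H3K27ac was at 6 (interval 21.4% to 67.4%) and H3K4me1 at 7 (26.8% to 73.2%), beside 54.7% and 41.5% of all genes. All 3 marks were at 2 (interval 4.01% to 39.9%, which holds the 9.18% of all genes). These 2 were the neighbours Cdkn2a and Cdkn2b, in a shared region of 50800 bp. They and Cdkn1a, also on the list, encode general cell cycle inhibitors and are neither fetal nor imprinted growth genes. None of the other members had all 3 marks, and those of them with H3K27ac were Peg3, Grb10 and Igf2bp3. Cdkn2a had 556 bp under all 3 marks at its TSS. They came from an H3K27ac peak of 1244 bp, an H3K4me1 peak of 715 bp and a further H3K4me1 peak upstream. At Cdkn2b, peaks of 1064 bp and 228 bp shared no base. Igf2 and Afp, growth and serum genes of the fetal liver, were covered end to end and had neither activating mark at a TSS. Beside 54.7% and 35.9% of all genes, 17 of 18 housekeeping genes had H3K27ac and 1 had H3K27me3. That gene, Psmb4, a proteasome subunit, had all 3 marks in its TSS window, with the region of 10000 bp beside the gene and no base of the gene covered. Of 19 genes of PRC2 and PRC1 subunits, 19 had H3K27ac, 5 had H3K27me3 and 2, Cbx2 and Cbx8, had all 3 marks. The intervals for H3K27me3, 11.8% to 48.8%, and all 3 marks, 2.94% to 31.4%, hold the 35.9% and 9.18% of all genes. Cbx2 had 369 shared bp in a region of 590400 bp.

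**Figure D5:**
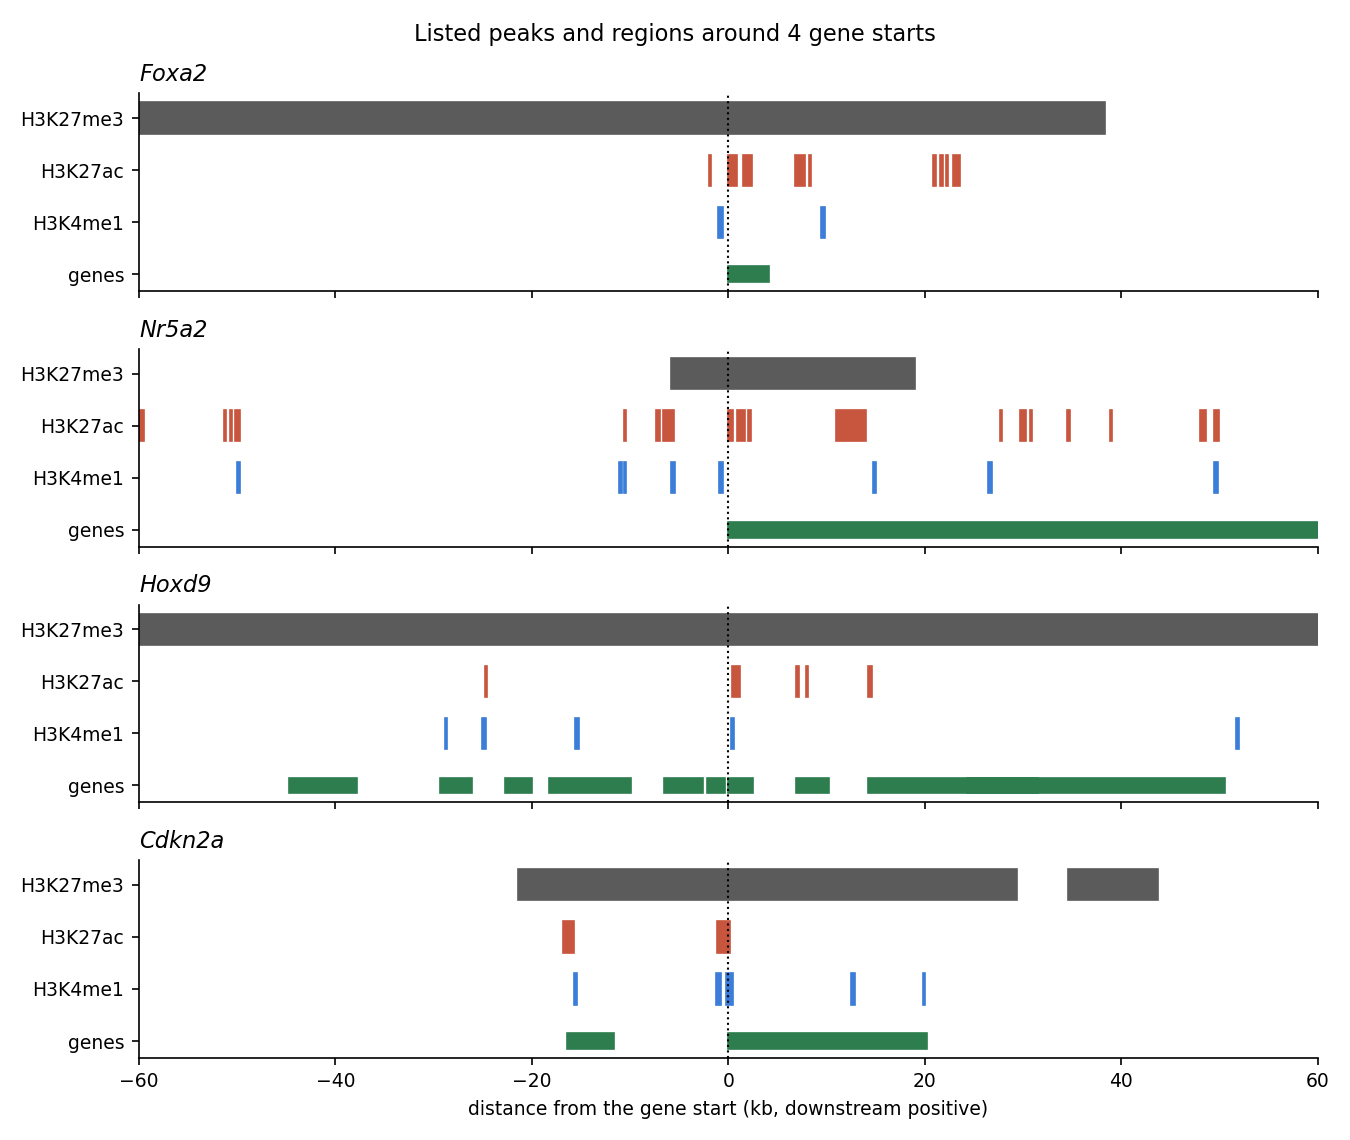
H3K27me3 regions, H3K27ac peaks, H3K4me1 peaks and protein-coding genes around the starts of Foxa2, Nr5a2, Hoxd9 and Cdkn2a, by distance in kb from the gene start, drawn so that each gene runs to the right. Bars are listed peaks and regions to scale, over 60 kb on each side. The window of Nr5a2 holds 18 H3K27ac peaks and 24.8 kb of H3K27me3, and that of Hoxd9 holds 5 H3K27ac peaks and H3K27me3 throughout.

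Of the 10 widest H3K27ac peaks wholly inside H3K27me3 regions, 9 touched a promoter, beside 32.9% of all H3K27ac peaks inside, and none met an H3K4me1 peak, beside 45.9% that did. The widest, 3010 bp at chr1:138843031-138846040, lay in an intron of Nr5a2, which encodes a nuclear receptor of bile acid and cholesterol metabolism, 5671 bp from the nearest TSS in a region of 24800 bp. Among the others, the peaks of Ttc36 (2604 bp), Gcgr (2389 bp), Camk2n1 (2212 bp), Axin2 (2193 bp), Tox (2189 bp), Pvrl1 (2184 bp) and Gfra1 (2132 bp) touched promoters. Gcgr encodes the glucagon receptor and Axin2 a feedback inhibitor of Wnt signalling.

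Of the 10 widest H3K4me1 peaks inside, 7 met an H3K27ac peak, beside 35.1% of all H3K4me1 peaks inside, and 3 touched a promoter, beside 28.4%. The promoters were those of Ovol2 (1989 bp), Has3 (a hyaluronan synthase, 1783 bp) and B3gat2 (1748 bp). The peak at chr2:59436410-59438211, 12788 bp from the TSS of Tanc1, shared 1349 of its 1802 bp with an H3K27ac peak, the longest stretch of all 3 marks found. The peak nearest to Commd3, 1887 bp wide and 63444 bp from its TSS, shared 1299 bp.

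The 10 regions with the most bases under both activating marks were 47200 to 590400 bp wide, and ranking by shared bases favours wide regions with many peaks. The first, chr8:10731601-11024400, held Irs2, an adaptor of the insulin receptor, and 3930402G23Rik, with 27 H3K27ac and 18 H3K4me1 peaks and 3317 bp under both marks, which is 1.13% of its width. The region of Foxp4, a forkhead gene (chr17:48040401-48209200), held 12 and 14 peaks and 3121 shared bp. The densest of the 10 was chr8:126222001-126269600, over Gm20388, where 2992 shared bp made up 6.29% of the width. The region of 590400 bp on chromosome 11 with Cbx2 and Cbx8, Polycomb genes themselves, held 19 and 14 peaks and 2424 shared bp. Pax2 with Hif1an, and Nrg2 with Psd2, lay in others of the 10.

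At TSSs, the most bases under all 3 marks were found at Fgf1, which encodes a growth factor of metabolic tissues, with 1117 bp in a region of 32800 bp that covered 6.46% of the gene. Trim62 followed with 990 bp, Wfdc2 with 848, Srms with 826, and Auts2 and Slc30a3 with 820 each. Psat1, an enzyme of serine synthesis, had 819 bp. The gene bodies differed in coverage, from 6.46% at Fgf1 and 24.6% at Auts2 to end to end at Trim62, Wfdc2, Srms and Slc30a3.

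A limit of the region list bears on every overlap given here. SICER, the program behind the regions, is stated to bridge gaps as long as 2400 bp between marked windows of 400 bp, although 654 of 14535 distances between neighbouring regions in the list are no longer than that and 75 are 0. How far gaps were joined is thus not settled by the list. Of the 10619 H3K27ac peaks that touch the regions, 3 were wider than 2400 bp. Whether an activating peak inside a region lies in a joined gap, without H3K27me3 signal of its own, the list does not show.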

How the data were processed

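Per the labels and methods, the authors pooled the paired-end reads of a mark's livers, mapped them to mm9 with Bowtie2 (2.3.2), and called H3K27me3 regions with SICER (1.1) and H3K27ac and H3K4me1 peaks with MACS2 (2.1.1). The deposited lists give chromosome, start, end and name, with no score, and 3 of the 12 were used here. 1 base was added to SICER ends, which fall 1 base short of a 400 bp window. All positions lie within the chromosomes of NCBIM37, and GENCODE M1 gave TSSs, exons and genes. Sex chromosomes were left out.

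Members and gene lists were chosen with earlier results of these data known. Named genes are the 14 lists, the 10 widest peaks of each activating mark wholly in a region, and the 10 regions and 10 TSS windows with most shared bases. Results for some genes of this rule are not reported here. Uniform shares were counted exactly over all free positions, with nothing drawn at random. Shares carry Wilson 95% intervals and medians order-statistic intervals. Overlap functions were tested on simulated data. Alternatives were overlaps, region trimming, merging, wide peaks, wide regions and other TSS windows. Computations ran in Python 3.11.15, NumPy 2.4.6, SciPy 1.17.1 and matplotlib 3.10.9. The sample records give 3 livers for H3K4me1, while the methods give 4.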

Additional observations from a re-analysis of the deposited data

How the results depend on the processing

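No paired analysis was possible because the livers of a mark were pooled before peaks were called, and for the same reason no liver could be left out. Of 75 recomputed values, 43 stayed within the interval of the reported value and 32 moved beyond it. The shares with H3K27ac and both pairs of median widths kept their order between inside and outside under the 6 alternatives run for them. When 50% of a peak had to overlap, H3K4me1 peaks with H3K27ac were 21.5% inside and 26.6% outside. With H3K27me3 regions shortened by 2400 bp at both ends, 17.9% of H3K27ac and 24.0% of H3K4me1 peaks lay inside, the H3K27ac ratio to uniform placement was 0.733, H3K4me1 peaks inside with H3K27ac were 33.7%, regions with an activating peak 44.8% and TSS windows with all 3 marks 7.34%. With peaks within 1 kb merged, 22.4% of H3K27ac peaks lay inside, at a ratio of 0.815. H3K4me1 peaks with H3K27ac were then 36.7% inside and 44.1% outside, and medians inside and outside were 533 and 680 bp for H3K27ac and 487 and 463 bp for H3K4me1. With the widest 50% of each activating list, 20.1% of H3K27ac peaks (ratio 0.730) and 28.4% of H3K4me1 peaks (ratio 1.04) lay inside. H3K4me1 peaks with H3K27ac were 24.6% inside and 32.8% outside, and the medians were 633 and 665 bp for H3K27ac and 592 and 572 bp for H3K4me1. Regions with an activating peak were 37.9% and TSS windows with all 3 marks 4.74%, where fewer peaks were counted. Placement over whole chromosome lengths gave ratios of 0.796 and 1.04. TSS windows of 2.5 kb gave 14.1% and genes of all biotypes 6.47%. The cause of these shifts was not tested otherwise. Limiting H3K27me3 to regions of at least 10 kb moved none of the 12 results. Joining regions within 2400 bp, an alternative chosen after seeing the data because 654 of 14535 neighbouring distances were at most that long and 75 were 0, moved none either. The H3K4me1 ratio lay on both sides of 1 among these settings, so its side is not settled. Without scores or depth, weak peaks cannot be set apart from strong ones.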

Other observations

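Among the distances compared, H3K27ac peaks were most frequent at 1 to 2 kb outside the H3K27me3 regions. Their density there was 43.7 centres per Mb, 1174 peaks in all, against 29.1 in the first kb outside the edge, 32.3 at 2 to 4 kb and 31.0 at 30 to 50 kb. H3K4me1 stood at 32.0 per Mb at 1 to 2 kb, 32.9 at 2 to 4 kb and 24.5 in the first kb outside the edge. The density of H3K27ac over the step from 1 to 2 kb outside to the first kb inside went from 43.7 to 23.5 per Mb.

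Genes with H3K27me3 alone at the TSS and genes with no mark there were short. The median gene length was 10.1 kb for the 2977 genes with H3K27me3 alone and 3.35 kb for the 4999 genes with none of the marks, against 25.2 kb for the 1966 genes with all 3 marks and 31.6 kb for the 1483 with H3K4me1 and H3K27me3.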
